A study of Mus musculus with 24 samples.

Results

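The genes described are 39 markers of microglia, chosen as a list by name. They consist of 5 inflammatory genes, Ccl3, Ccl4, Il1a, Il1b and Tnf, which were kept apart because cutting tissue can induce them, and 34 others. The 34 are called homeostatic here, after the state of resting microglia in healthy brain. That name covers all the remaining genes of the list, and not each of them marks that state. Cd14, Cd83 and Cd68, for example, are counted among them. All 39 were present among the 23845 genes with RNA values and the 20436 genes with footprint values, and all 39 passed the filter on low counts. RNA-seq and ribosome profiling, which sequences the mRNA fragments protected by ribosomes (RPFs, or footprints), had been carried out on acute hippocampal slices with CA3 cut off. The question of the study was how loss of 1 Tsc2 allele and a brief activation of metabotropic glutamate receptors alter RNA and translation.

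The 4 groups were wild-type (WT) slices given ACSF vehicle, WT slices given DHPG at 100 µM for 5 min, Tsc2+/- slices given vehicle and Tsc2+/- slices given DHPG. Every slice then received cycloheximide at 100 µg/ml, which halts ribosomes. DHPG activates group I metabotropic glutamate receptors. The mice were males aged 28 to 42 days on a C57BL/6J background, and the Tsc2+/- allele was a germline deletion made by crossing CMV-Cre mice with Tsc2flox mice, so it was carried by microglia as by every other cell. WT mice were littermates. Slices of several mice were pooled for a library, and each group had 3 RNA and 3 RPF libraries, numbered 1 to 3 and called replicates in the study. The study took a part of each lysate for RNA-seq and the rest for ribosome profiling. RNA and RPF libraries therefore share pools of animals, and a like result in both is not a second observation on other animals. By the number of mice that the study states, each pool was made from its own animals, so p-values measure the spread between pools of animals.

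Microglia are the resident macrophages of the brain. They survey tissue through purinergic and chemokine receptors, depend on signals through the receptor CSF1R for survival, and take up debris tagged by complement. When tissue is injured they lower many surveillance genes and produce chemokines and cytokines such as CCL3, CCL4, IL-1 and TNF, largely through the transcription factor NF-kB. This response starts within the time that slices are cut and rested.

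RNA libraries held 14801679 to 24067838 counts and RPF libraries 5296006 to 13613673. Tsc2 RNA was 186 to 214 CPM, the usual unit of counts scaled to library size, in the 6 WT libraries and 128 to 137 CPM in the 6 Tsc2+/- libraries, as the labels say. In the RPF libraries of replicates 2 and 3, 97.9% to 98.5% of the non-zero counts were even numbers, against 48.2% to 49% in replicate 1, and the RNA counts showed no such split, at 48.5% to 49.7%. Doubled counts would overstate the counting precision of those RPF libraries, so the RPF and TE tests were also run with these counts halved. The summed levels, sums of squares, overlaps and basal TE were not.

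The defining genes of microglia were found in all 24 libraries. The 34 homeostatic genes together made up 830 to 933 CPM of RNA and 1160 to 1530 CPM of RPF. Markers of blood leukocytes were scarce. Of 11 genes of blood leukocytes in the files, 8 had 3 or fewer RNA counts in every library and all 11 had 3 or fewer RPF counts, with a summed level of at most 0.355 CPM of RNA and 0.53 CPM of RPF. The 4 red blood cell genes in the files, led by the haemoglobin gene Hba-a2, summed to 2.59 to 35.2 CPM of RNA and 0 to 1.53 CPM of RPF. The 8 markers of border-associated macrophages, the relatives of microglia around vessels and meninges, summed to 2.39 to 7.46 CPM of RNA and 12.7 to 21.6 CPM of RPF, led by Mrc1. In pooled tissue, fewer microglia and less RNA per microglial cell cannot be told apart. One member, Hexdc, encodes hexosaminidase D.

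Levels of different genes were compared per length, as CPM per kilobase of transcript for RNA and of coding sequence for RPF, in the 3 WT vehicle libraries. Ccl3, a chemokine that attracts leukocytes, had the highest level in both, at 182 ± 115 CPM per kilobase of RNA (SD, n = 3) and 1200 ± 594 CPM per kilobase of RPF. Its neighbour on chromosome 11, Ccl4, a related chemokine, was at 50.4 ± 24.8 of RNA and 649 ± 284 of RPF. The annotated transcripts of Ccl3 (83647843 to 83649378, minus strand) and Ccl4 (83648624 to 83664683, plus strand; GRCm38, the same build as mm10) overlap. The RNA kit was directional, but whether strand was used in counting is not given in the sources used here, so the division of RNA reads between them is uncertain. The lysosomal protease Lgmn was the highest homeostatic gene, at 58.3 ± 1.07 of RNA and 229 ± 10.9 of RPF. Lgmn was also the steadiest, since the highest of the 12 RNA libraries was 1.11-fold the lowest. Ccl4 and Lgmn RNA did not differ beyond their spread. At the low end were Ptprc, the leukocyte phosphatase CD45, at 0.514 ± 0.0623 of RNA, and Sall1, the transcription factor that sets microglial identity, at 2.1 ± 0.611 of RPF.

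Footprints per RNA, a measure of translational efficiency (TE), differed widely among the genes. RNA length was that of the annotated transcript with the longest coding sequence, and the longest such transcript on a tie. For its own TE the study used coding sequence for both RNA and RPF. An annotated transcript longer than the one expressed would raise TE here, and the SD does not include this. Relative to the median of 12190 genes, the median TE of the 5 inflammatory genes was 1.56 ± 0.227 on the log2 scale (SD over the 3 WT vehicle replicates), and 4 of the 5 lay above the median gene. The median of the 34 homeostatic genes was 0.30 ± 0.336, with 23 above the median gene and 11 below. The homeostatic median depended on the library, being 0.64 in replicate 1, 0.34 in replicate 2 and -0.03 in replicate 3. Gpr34, a receptor for lysophosphatidylserine, had the highest TE of all 39 by this measure, at 2.77 ± 0.374, which is the 98.8th percentile of all genes. Its value rests on an annotated transcript of 7297 bases for a coding sequence of 1128 bases. Ccl4 followed at 2.49 ± 0.128, then Ptprc at 2.26 ± 0.308 and Aif1, the calcium-binding protein IBA1, at 2.23 ± 0.362, and these neighbours did not differ beyond their spread. Il1b, the secreted cytokine interleukin 1 beta, was at 1.94 ± 0.121, and Ccl3 at 1.56 ± 0.231. The lowest were Sall1 at -1.86 ± 0.331, Itgb5, an integrin subunit, at -1.72 ± 0.403 and Tmem119, a surface protein that separates microglia from other macrophages, at -0.98 ± 0.381. Sall1 and Itgb5 are also expressed by other cells of the brain, and the libraries do not separate their reads by cell.

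**Figure D1:**
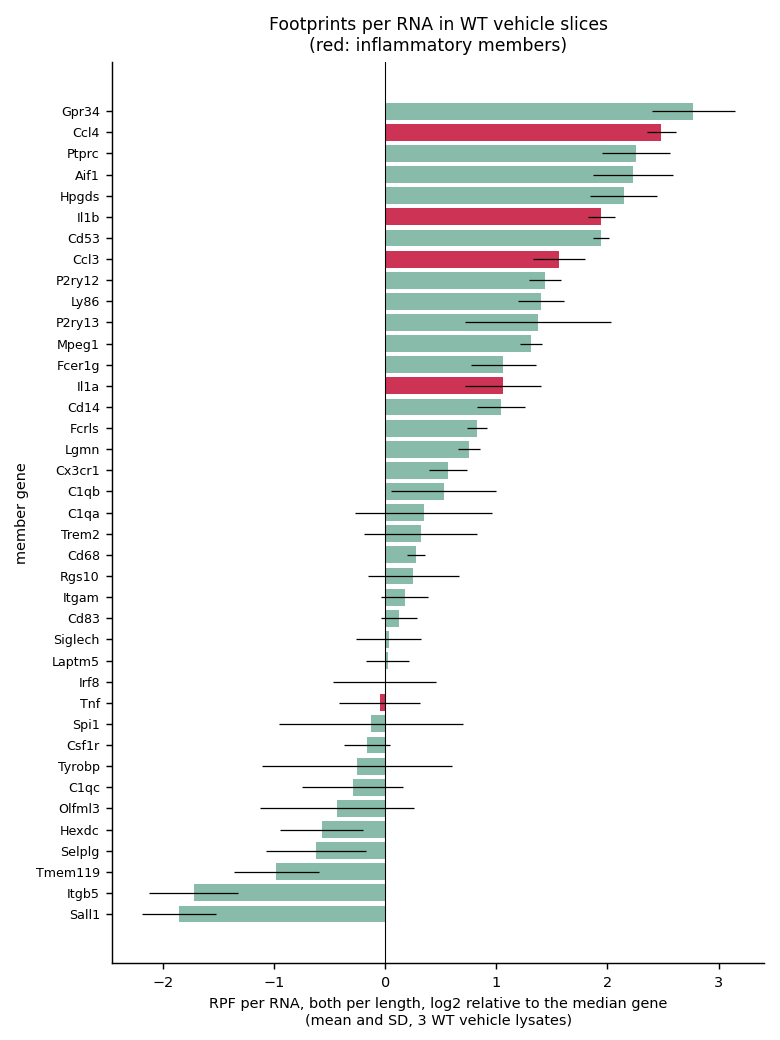
Footprints per RNA of each of the 39 genes in WT vehicle slices, as log2 relative to the median of 12190 genes. Bars show the mean and thin lines the SD of 3 replicates. Gpr34 is highest at 2.77, 4 of the 5 inflammatory genes lie above 0, and Sall1 is lowest at -1.86.

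None of the 39 genes was called between genotypes or between treatments. Calls were made at an adjusted p under 0.1 over all genes with edgeR's quasi-likelihood test, with the replicate number in the model. In RNA, 0 of 39 genes were called in Tsc2+/- against WT in vehicle, where 0.0896% of all genes were called, and 0 of 39 in DHPG, where 0.0482% were. For DHPG against vehicle the RNA count was 0 of 39 in WT and in Tsc2+/-, with 0.0% of all genes called in each. The interaction of genotype and DHPG gave 0 (0.0% of all genes), genotype averaged over treatments 0 (0.227%) and DHPG averaged over genotypes 0 (0.0207%).

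In RPF the counts were likewise 0 of 39 for genotype in vehicle (0.0233% of all genes), genotype in DHPG (0.0155%), DHPG in WT (0.0311%), DHPG in Tsc2+/- (0.0%), the interaction (0.0%), genotype averaged (0.0621%) and DHPG averaged (0.0311%). In TE they were 0 of 39 for genotype in vehicle (0.0%), genotype in DHPG (0.0%), DHPG in WT (0.0469%), DHPG in Tsc2+/- (0.0%), the interaction (0.0%), genotype averaged (0.0%) and DHPG averaged (0.0469%). DESeq2 also gave 0 in all of them. At an unadjusted p under 0.05 there were 1 to 4 of the 39 in an RNA comparison, 0 to 3 in RPF and 0 to 2 in TE. None of these was an inflammatory gene in RNA or RPF. Of all genes, 3.47% to 7.49% were under 0.05 in RNA, 3.81% to 6.82% in RPF and 3.03% to 9.14% in TE. So few genes of the whole transcriptome passed the test that a count of 0 of 39 does not set the microglial genes apart.

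The homeostatic genes were centred near 0 in each comparison. Their median log2 fold change for genotype in vehicle was 0.03 in RNA and 0.05 in RPF, against -0.0021 for all genes in both. For DHPG in WT it was -0.0005 in RNA and -0.05 in RPF, and for DHPG in Tsc2+/- -0.04 in RNA and -0.09 in RPF. Their summed RNA was 859, 884 and 838 CPM in the WT vehicle libraries (replicates 1, 2 and 3), 863, 933 and 847 in WT DHPG, 894, 907 and 862 in Tsc2+/- vehicle and 830, 920 and 871 in Tsc2+/- DHPG. The 4 groups overlapped. The genotype difference in the sum, taken within replicate numbers, was 0.05 ± 0.0115 log2 in vehicle and -0.01 ± 0.0481 in DHPG (SD, n = 3).

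**Figure D2:**
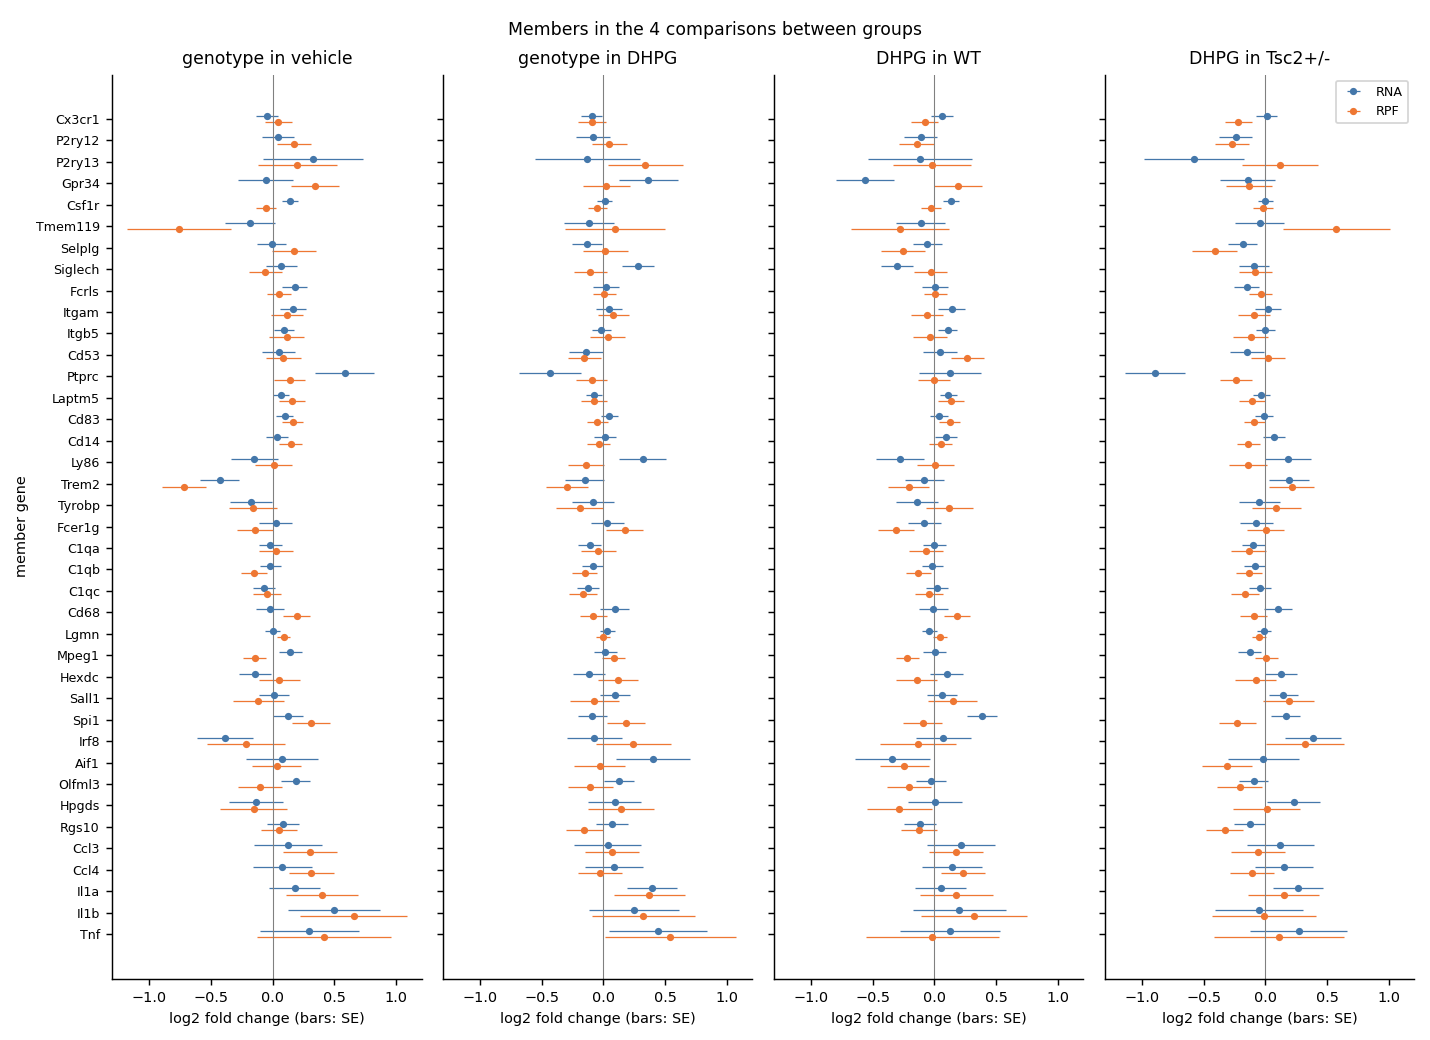
Log2 fold change of each of the 39 genes, with bars of 1 SE, for genotype in vehicle, genotype in DHPG, DHPG in WT and DHPG in Tsc2+/-, in RNA and in RPF. None was called, and Trem2 RPF for genotype in vehicle lies at -0.72.

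Among the receptors and adaptors, Trem2 had the smallest p-value of the genotype comparisons. TREM2 is a lipid receptor that drives phagocytosis and signals through the adaptor TYROBP, and its gene lies on chromosome 17 (48346401 to 48352276, plus strand). Trem2 RNA was 8.27, 7.75 and 8.96 CPM in WT vehicle and 6.43, 5.77 and 6.32 CPM in Tsc2+/- vehicle, with no overlap. In DHPG it was 7.21, 9.25 and 7.15 CPM in WT and 6.26, 8.45 and 6.56 CPM in Tsc2+/-, which overlap. Trem2 RPF was 20.6, 13.6 and 11 CPM in WT vehicle and 11.7, 8.22 and 7.37 CPM in Tsc2+/- vehicle, and 15.1, 14.2 and 9.63 against 10.9, 13.1 and 8.03 CPM in DHPG. RPF levels overlapped between genotypes, but the Tsc2+/- library was below the WT library of the same number in all 3 pairs of each treatment, in RNA and in RPF. The log2 fold change in vehicle was -0.43 (SE 0.16, unadjusted p = 0.0109, adjusted p = 0.934) in RNA and -0.72 (SE 0.176, unadjusted p = 0.00029, adjusted p = 0.311) in RPF by edgeR's quasi-likelihood test. The RPF difference averaged over treatments, -0.51 (SE 0.123, adjusted p = 0.266), passed under 2 alternatives, with adjusted p = 0.0934 without the filter and 0.066 with the even RPF counts halved. The TE difference in vehicle was -0.28 (adjusted p = 0.911). Red blood cell RNA also parted the genotypes in vehicle, at 20.9 to 26.8 CPM in WT and 2.59 to 16.5 CPM in Tsc2+/-, and overlapped in DHPG, at 16.3 to 35.2 and 5.04 to 17.7 CPM. Its part in the Trem2 values was not tested. Tyrobp and the Fc receptor chain Fcer1g, the other adaptors of the group, were not at an unadjusted p under 0.05 for genotype in RNA or RPF.

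Ptprc had the smallest p-value of the RNA comparisons, on low levels. Its RNA was 2.97, 5.19 and 4.74 CPM in Tsc2+/- vehicle and 2.38, 2.79 and 1.73 CPM in Tsc2+/- DHPG, against 3.02, 3.09 and 2.46 CPM in WT vehicle and 2.18, 3.88 and 3.27 CPM in WT DHPG. The DHPG libraries were below the vehicle libraries of the same number in all 3 Tsc2+/- pairs. The log2 fold change of DHPG in Tsc2+/- was -0.89 (SE 0.242, unadjusted p = 0.000718) and that of the interaction -1.02 (SE 0.349, unadjusted p = 0.00596), with adjusted p = 1 and 0.999. Spi1, the transcription factor PU.1 that directs macrophage genes, was 12.4, 13.1 and 18 CPM of RNA in WT vehicle and 18.1, 20.6 and 17.7 CPM in WT DHPG. The difference, 0.38 (SE 0.122), had an unadjusted p of 0.00334 and an adjusted p of 0.712. Gpr34 RNA was 4.77, 4.08 and 3.10 CPM in WT vehicle and 3.64, 2.83 and 1.75 CPM in WT DHPG, which overlap. It was lower by 0.56 log2 (SE 0.236, adjusted p = 0.726). Csf1r, the receptor on which microglial survival depends, differed by 0.14 (SE 0.0618, adjusted p = 0.983) for genotype in vehicle in RNA.

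The other genes with one of the 2 smallest p-values of a comparison are given because of that p, and none of their differences was called. Siglech, a sialic acid receptor of microglia, was at 13.2, 14.8 and 12.2 CPM, 10.6, 13 and 9.09 CPM, 14.9, 15.3 and 12 CPM, and 10.7, 15.2 and 13.7 CPM of RNA in WT vehicle, WT DHPG, Tsc2+/- vehicle and Tsc2+/- DHPG, and differed by 0.28 (SE 0.129, adjusted p = 0.997) for genotype in DHPG. Its RPF was 28, 21.6 and 18.6 CPM, 22.4, 22.2 and 22.5 CPM, 23, 21.2 and 21.5 CPM, and 19.7, 25 and 18.2 CPM, and its TE differed by -0.39 (SE 0.189, adjusted p = 1) in the same comparison. For DHPG in WT, RPF of the Fc receptor chain Fcer1g, at 18.3, 19.1 and 17.1 CPM, 15.8, 15.1 and 12.7 CPM, 17.3, 15.9 and 15.9 CPM, and 15.4, 21.7 and 13.2 CPM, differed by -0.31 (SE 0.148, adjusted p = 0.731). Mpeg1 RPF, at 66, 73 and 59 CPM, 60.8, 60.1 and 48.6 CPM, 67.1, 59.7 and 51.6 CPM, and 57.7, 75.1 and 48.9 CPM, differed by -0.22 (SE 0.0922, adjusted p = 0.674). These groups lay close together. For DHPG in Tsc2+/-, RPF of Rgs10, a brake on G protein signals, was 24.9, 17.6 and 17.5 CPM, 20.5, 20.3 and 14.2 CPM, 19.1, 23.3 and 20 CPM, and 16.6, 18.3 and 14.6 CPM, with a difference of -0.33 (SE 0.149, adjusted p = 1), and Selplg RPF differed by -0.41 (SE 0.18, adjusted p = 1). P2ry12 RNA differed by -0.24 (SE 0.132, adjusted p = 1) there. C1qb RPF differed by -0.15 (SE 0.104, adjusted p = 1) for genotype in DHPG, and TE of Ly86, a partner of a Toll-like receptor homologue, by -0.46 (SE 0.24, adjusted p = 1). The 2 groups compared did not overlap for Fcer1g and Rgs10 RPF, and overlapped for the others given by library in this paragraph.

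In TE, Gpr34 differed by 0.76 (SE 0.305, adjusted p = 0.421) and Spi1 by -0.47 (SE 0.205, adjusted p = 0.464) for DHPG in WT, each opposite in sign to its RNA difference. Ptprc TE differed by 0.66 (SE 0.246, adjusted p = 0.999) for DHPG in Tsc2+/-, again opposite to its RNA, and Spi1 TE by -0.39 (SE 0.2, adjusted p = 0.999). For genotype in vehicle, TE differed by -0.28 (SE 0.131, adjusted p = 0.874) for Mpeg1 and -0.45 (SE 0.244, adjusted p = 0.874) for Ptprc. TE holds the RNA values of the same comparison, so that a gene of few RNA counts enters both. Ptprc RNA differed by 0.58 (SE 0.24, adjusted p = 0.983) for genotype in vehicle and -0.43 (SE 0.252, adjusted p = 0.997) in DHPG, and Spi1 RPF by 0.31 (SE 0.155, adjusted p = 0.757) in vehicle.

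The inflammatory genes varied far more among libraries of a group than between groups. Il1b (chromosome 2, 129364569 to 129371164, minus strand) had RNA of 4.03, 7.5 and 28.7 CPM in WT vehicle, 4.63, 11.7 and 27.6 CPM in WT DHPG, 8.31, 18 and 21.4 CPM in Tsc2+/- vehicle and 9.61, 11.3 and 27.5 CPM in Tsc2+/- DHPG. In each group the replicate 3 library was the highest and the replicate 1 library the lowest. Il1b RPF followed the same order within groups, at 14.8, 24.6 and 111 CPM, 17.3, 38.6 and 130 CPM, 31.3, 72.4 and 86.3 CPM, and 39.5, 50.5 and 104 CPM.

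Tnf, tumour necrosis factor (chromosome 17, 35199367 to 35202007, minus strand), was at 15.8, 32.4 and 87.9 CPM of RNA in WT vehicle, 14.6, 39.2 and 95.3 CPM in WT DHPG, 27.8, 58.2 and 58.1 CPM in Tsc2+/- vehicle and 42.2, 46.5 and 86.6 CPM in Tsc2+/- DHPG. Its RPF was 11.9, 25.1 and 103 CPM, 9.46, 30.5 and 100 CPM, 14.6, 72.4 and 72.8 CPM, and 34.3, 42.6 and 82.6 CPM in the same groups. The highest of the 12 RPF libraries was 10.9-fold the lowest for Tnf and 8.78-fold for Il1b. Il1a, the cytokine interleukin 1 alpha that is released from damaged cells, was at 38.1, 51.8 and 114 CPM of RNA in WT vehicle, 34.5, 60.5 and 116 CPM in WT DHPG, 44.1, 75.8 and 98.8 CPM in Tsc2+/- vehicle and 66.3, 66.7 and 129 CPM in Tsc2+/- DHPG. Its RPF was 50.9, 105 and 229 CPM, 59.4, 133 and 235 CPM, 79.8, 188 and 193 CPM, and 118, 124 and 267 CPM in these groups. In both assays all 4 replicate 3 libraries were above all 4 replicate 1 libraries.

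Ccl3 was the most abundant of the 5, and both chemokines had a narrower range. Ccl3 RNA was 79.3, 104 and 247 CPM in WT vehicle, 107, 135 and 239 CPM in WT DHPG, 101, 174 and 159 CPM in Tsc2+/- vehicle and 123, 163 and 185 CPM in Tsc2+/- DHPG. Ccl4 RNA was 29.4, 34.5 and 69.6 CPM, 29.2, 43.7 and 74.1 CPM, 29.2, 57.5 and 49 CPM, and 37.6, 50.5 and 62.4 CPM. In Tsc2+/- vehicle the replicate 2 library exceeded replicate 3 for both genes, and in the other 3 groups replicate 3 was highest. Ccl3 RPF was 149, 235 and 405 CPM, 176, 263 and 441 CPM, 176, 408 and 357 CPM, and 222, 265 and 399 CPM. Ccl4 RPF was 91.3, 123 and 212 CPM, 117, 152 and 222 CPM, 118, 205 and 188 CPM, and 132, 136 and 205 CPM. The RPF libraries had the same order within groups as the RNA libraries for both genes.

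**Figure D3:**
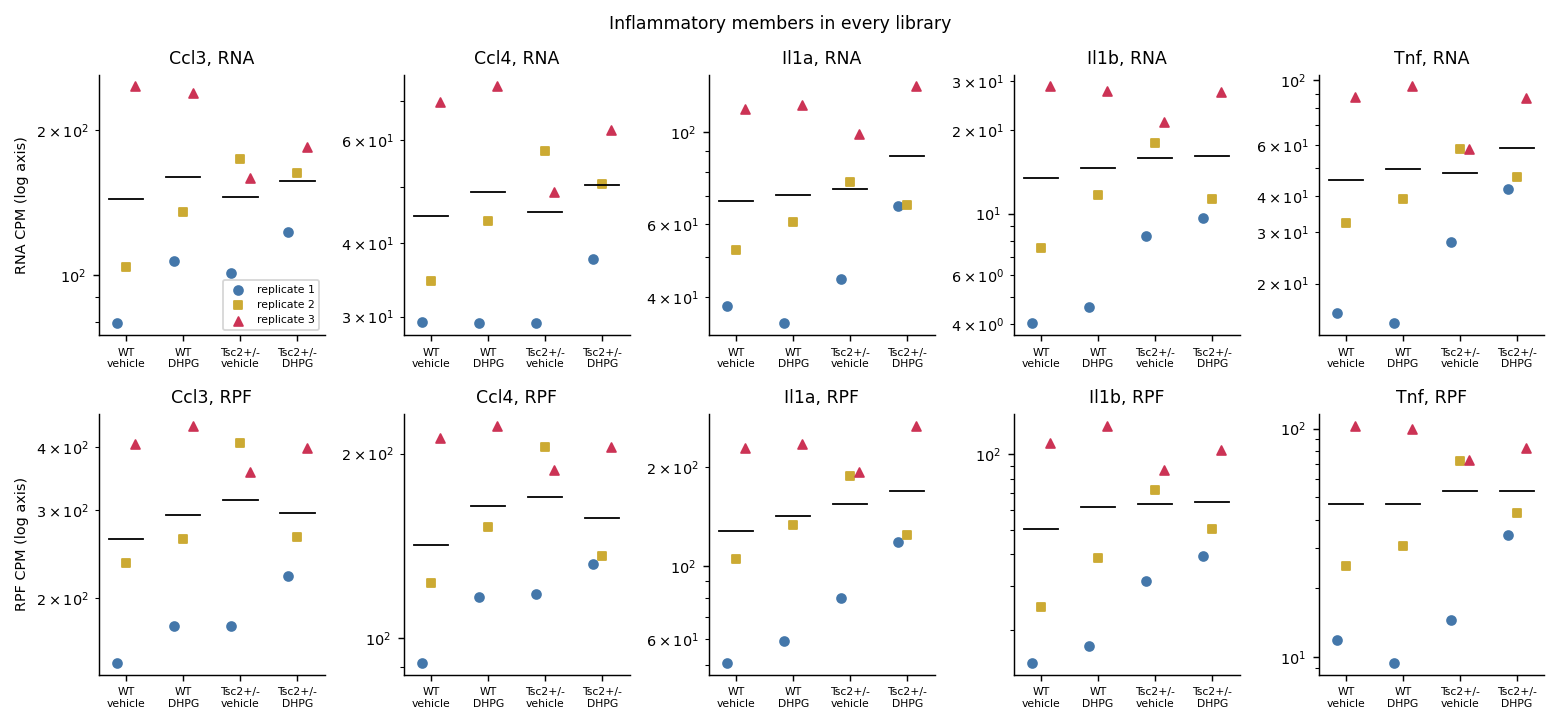
CPM of the 5 inflammatory genes in every library on log axes, RNA above and RPF below, with the 4 groups along the x axis and the replicate number shown by the marker. For each gene and assay the 4 replicate 3 libraries lie above the 4 replicate 1 libraries, whatever the genotype or treatment.

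For genotype in vehicle, the 5 inflammatory genes all had log2 fold changes above 0 in RNA, with a median of 0.18, and the median in RPF was 0.40. The values were 0.50 (SE 0.371, adjusted p = 0.991) for Il1b RNA and 0.66 (SE 0.435, adjusted p = 0.857) for Il1b RPF. The summed level of the 5 genes shows how this differed among replicate numbers. Tsc2+/- exceeded WT in vehicle by 0.34 log2 of RNA in replicate 1 and 0.74 in replicate 2, and was -0.50 in replicate 3. In RPF these differences were 0.40, 0.88 and -0.24. In DHPG they were 0.55, 0.22 and -0.17 of RNA and 0.52, 0.0012 and -0.09 of RPF.

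The genotype comparison of these genes therefore turned on replicate 3. Without the replicate 3 libraries, leaving 2 replicates per group, Ccl3 and Il1b were called higher in Tsc2+/- vehicle RNA, at 0.56 (SE 0.083, adjusted p = 0.00127) and 1.17 (SE 0.198, adjusted p = 0.00431). In RPF, Il1b was then called at 1.35 (SE 0.167, adjusted p = 0.000314) in vehicle and 0.79 (SE 0.16, adjusted p = 0.0291) in DHPG. The shares of all genes given above are for fits with all 3 replicates. They do not apply to these calls, so whether the calls stand out from other genes is not shown. With all 3 replicates none of the 5 was called, and leaving out replicate 1 or replicate 2 gave no call of them either.

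By the median, the replicate number accounted for more of the variation in microglial genes than the group did. This comparison was added after the values had been seen. Of the sum of squares of log2 CPM over the 12 RNA libraries, the replicate number took a median of 77.3% for the 5 inflammatory genes, 42.8% for the 34 homeostatic genes and 18.6% for all genes, against 7.33%, 14.8% and 24% for the 4 groups. In RPF the medians were 78.7%, 60.2% and 21.5% for the replicate number and 7.88%, 12.8% and 23.5% for the group. The labels give no more than the number, and what differed in practice between the 3 sets of libraries is not stated for single numbers.

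Replicate 3 against replicate 1, with 4 libraries each, gave calls for 12 of the 39 genes in RNA, where 2.63% of all genes were called, and for 23 of 39 in RPF, where 3.61% were. In RNA 7 rose (1.56% of all genes) and 5 fell (1.07%), and in RPF 6 rose (1.59%) and 17 fell (2.02%). In TE 2 fell, Itgam and C1qb, where 0.391% of all genes were called, 0.188% higher and 0.203% lower. The RPF count rose to 24 with the even counts halved, and was 18 by DESeq2.

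The inflammatory genes rose. The log2 fold changes in RNA were 2.0 (SE 0.329, adjusted p = 0.0451) for Il1b, 1.75 (SE 0.356, adjusted p = 0.0949) for Tnf, 1.34 (SE 0.177, adjusted p = 0.021) for Il1a and 1.02 (SE 0.209, adjusted p = 0.0948) for Ccl4, and Ccl3 at 1.03 (SE 0.24, adjusted p = 0.137) missed the threshold. In RPF all 5 were called, Tnf at 2.47, Il1b at 2.15, Il1a at 1.64, Ccl3 at 1.16 and Ccl4 at 0.86. All 5 had no overlap between the 4 replicate 3 and the 4 replicate 1 libraries in RNA and in RPF, whereas 3.44% of all genes in RNA and 4.19% in RPF lay wholly higher. None of the 5 changed in TE by this test, and their median TE difference was 0.17. These calls rest on few libraries, though no direction turned, and the share of all genes called in the reduced fits is not given here. In RNA the call of Il1a held under every alternative run, Il1b lost its call without any of 5 libraries (log2 fold change 1.86 to 2.08), and Tnf and Ccl4 lost theirs without any of 7, all but Tsc2+/- vehicle replicate 3. In RPF the 5 calls were lost together without WT vehicle replicate 1, WT DHPG replicate 1, WT DHPG replicate 3 or Tsc2+/- vehicle replicate 1. The adjusted p reached 0.349 for Tnf RNA and 0.228 for Tnf RPF, where the log2 fold change ran from 2.21 to 2.75 in the fits that lost the call.

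Cd14, the co-receptor for bacterial lipopolysaccharide and counted here among the homeostatic genes, rose most clearly. In the lists of 4 values that follow, the libraries are WT vehicle, WT DHPG, Tsc2+/- vehicle and Tsc2+/- DHPG. Cd14 RNA was 25.1, 25.4, 23.8 and 23 CPM in replicate 1, 28.7, 32.7, 36.1 and 37.7 CPM in replicate 2 and 47.6, 49.7, 43.1 and 48.7 CPM in replicate 3. Its RPF was 85.5, 77.3, 73 and 73.3 CPM in replicate 1, 89.6, 101, 129 and 108 CPM in replicate 2 and 121, 132, 133 and 121 CPM in replicate 3. The 3 sets did not overlap in RNA, and in RPF replicates 2 and 3 overlapped. The log2 fold change of replicate 3 against replicate 1 was 0.96 (SE 0.0788, adjusted p = 1.48e-10) in RNA and 0.71 (SE 0.0801, adjusted p = 2.55e-06) in RPF, and Cd14 was called in both under every alternative run.

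2 further genes rose in RNA. Cd83, a membrane protein of activated antigen-presenting cells, was at 77.2, 75, 72.8 and 84.9 CPM in replicate 1, 89.1, 89.8, 107 and 85.8 CPM in replicate 2 and 96.2, 105, 103 and 107 CPM in replicate 3, and rose by 0.41 (SE 0.0616, adjusted p = 9e-05). Cd68, a glycoprotein of lysosomes, was at 12.4, 11.6, 12.8 and 13.5 CPM in replicate 1, 13.8, 15.7, 13.2 and 15.3 CPM in replicate 2 and 16.4, 15, 15.9 and 16.2 CPM in replicate 3, and rose by 0.33 (SE 0.1, adjusted p = 0.0861). The Cd68 call was lost without any one of the 8 libraries, with an adjusted p of up to 0.299, while that of Cd83 held under every alternative run. Neither overlapped between replicates 1 and 3. Cd83 RPF was 48, 53.9, 57.2 and 51.7 CPM in replicate 1, 63, 63.5, 66.6 and 62.4 CPM in replicate 2 and 54.4, 62.8, 61.3 and 60 CPM in replicate 3, so that replicate 2 was highest in each group. In RPF, Cd83 at 0.18 (SE 0.0727, adjusted p = 0.226) and Cd68 at 0.29 (SE 0.093, adjusted p = 0.101) missed the threshold. Cd68 RPF was 24.1, 30.1, 32 and 26.4 CPM in replicate 1, 30.1, 34.7, 35 and 34.8 CPM in replicate 2 and 35, 35.5, 33.6 and 34.2 CPM in replicate 3.

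Of the 4 purinergic and chemokine receptors, 2 fell. Cx3cr1, the receptor for the neuronal chemokine fractalkine, had RNA of 43.9, 43, 38.1 and 37.2 CPM in replicate 1, 41.3, 39.9, 37.4 and 42.2 CPM in replicate 2 and 26.7, 32.5, 31.4 and 29.1 CPM in replicate 3. Its RPF was 44.1, 38.4, 42.2 and 34.7 CPM in replicate 1, 33.4, 35.7, 40 and 29.9 CPM in replicate 2 and 25.9, 23.6, 24.5 and 25.7 CPM in replicate 3. Replicate 3 lay below replicate 1 without overlap in both assays, and the log2 fold changes were -0.43 (SE 0.0751, adjusted p = 0.000472) in RNA and -0.67 (SE 0.0957, adjusted p = 4.24e-05) in RPF. P2ry12, the ADP receptor with which microglia sense injury, had RNA of 13.9, 13.2, 13.9 and 13 CPM in replicate 1, 15.1, 11.2, 13.2 and 10 CPM in replicate 2 and 8.37, 9.85, 11.1 and 9.31 CPM in replicate 3, and RPF of 32.9, 35.8, 37.5 and 29.5 CPM in replicate 1, 40.9, 29.8, 36.1 and 30.7 CPM in replicate 2 and 18.6, 17.7, 30.1 and 25 CPM in replicate 3. It changed by -0.48 (SE 0.117, adjusted p = 0.0195) in RNA, without overlap, and by -0.57 (SE 0.122, adjusted p = 0.0092) in RPF, with overlap. P2ry13, a second ADP receptor of 0.397 to 2.56 CPM of RNA, and Gpr34 were not called.

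Of the other surface proteins, Selplg and Fcrls fell in both assays. Selplg, the ligand of P-selectin, had RNA of 17.6, 18.4, 20.8 and 14.1 CPM in replicate 1, 21, 17.7, 16.6 and 16.9 CPM in replicate 2 and 11.7, 12.1, 12.5 and 12.5 CPM in replicate 3. Its RPF was 17.2, 12.2, 16.1 and 10.7 CPM in replicate 1, 11, 10.7, 15.9 and 13.8 CPM in replicate 2 and 7.61, 6.84, 8.25 and 6.14 CPM in replicate 3. It changed by -0.53 (SE 0.106, adjusted p = 0.00292) in RNA and by -0.95 (SE 0.16, adjusted p = 0.000419) in RPF, without overlap in either. Fcrls, a receptor-like protein found on microglia and few other macrophages, had RNA of 20.4, 20.8, 27.1 and 21.3 CPM in replicate 1, 18.6, 18.3, 19.3 and 19.4 CPM in replicate 2 and 16.1, 16.2, 16.7 and 15.6 CPM in replicate 3. Its RPF was 50.5, 51.2, 58.7 and 50.3 CPM in replicate 1, 45.9, 47.6, 43.2 and 47.9 CPM in replicate 2 and 44.5, 42.8, 44.2 and 44.1 CPM in replicate 3. It changed by -0.47 (SE 0.0906, adjusted p = 0.00197) in RNA and -0.26 (SE 0.0804, adjusted p = 0.0828) in RPF, again without overlap. The RPF call of Fcrls was lost in 10 of 16 alternatives, DESeq2 and leaving out any one library but Tsc2+/- DHPG replicate 1 among them, with an adjusted p of up to 0.345 without Tsc2+/- vehicle replicate 1.

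Tmem119, the surface protein named above, was a gene of few counts. Its RNA was 6.66, 6.29, 4.60 and 4.58 CPM in replicate 1, 6.68, 6.87, 5.90 and 4.90 CPM in replicate 2 and 3.74, 2.89, 4.24 and 4.61 CPM in replicate 3, and its RPF, of 4 to 33 counts a library, was 3.43, 2.40, 2.22 and 1.97 CPM in replicate 1, 2.51, 2.20, 1.33 and 1.87 CPM in replicate 2 and 1.14, 1.27, 0.589 and 2.12 CPM in replicate 3. The difference of -0.49 (SE 0.177, adjusted p = 0.197) in RNA was not called against replicate 1, but that of -0.64 against replicate 2 was. Csf1r had RNA of 118, 120, 129 and 121 CPM in replicate 1, 122, 137, 124 and 126 CPM in replicate 2 and 97.9, 113, 119 and 124 CPM in replicate 3. Its RPF was 213, 180, 200 and 164 CPM in replicate 1, 184, 188, 163 and 193 CPM in replicate 2 and 133, 148, 143 and 142 CPM in replicate 3. The change was -0.11 (SE 0.0536, adjusted p = 0.388) in RNA, with overlap, and -0.41 (SE 0.0698, adjusted p = 0.000682) in RPF, without.

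Itgam, the integrin chain CD11b of complement receptor 3, was called lower in RPF and in TE and not in RNA. Its RNA was 19.2, 17.7, 17.9 and 20.3 CPM in replicate 1, 19.2, 22.9, 21.4 and 20.9 CPM in replicate 2 and 15.5, 18.6, 20.8 and 19.6 CPM in replicate 3, with no parting by number. Its RPF was 41.3, 42.5, 48.5 and 35.3 CPM in replicate 1, 38.4, 39.8, 36.6 and 38.5 CPM in replicate 2 and 25.1, 19.3, 28.3 and 30.9 CPM in replicate 3, and replicate 3 lay below replicate 1 without overlap. The log2 fold changes were -0.02 (SE 0.0933) in RNA, -0.70 (SE 0.112, adjusted p = 0.000382) in RPF and -0.69 (SE 0.15, adjusted p = 0.0488) in TE. Itgb5 RPF was 31.8, 23.7, 26.5 and 25.7 CPM in replicate 1, 22.6, 23, 23.9 and 25 CPM in replicate 2 and 14.8, 21, 24.7 and 18.9 CPM in replicate 3, a change of -0.42 (SE 0.121, adjusted p = 0.0691). Laptm5, a lysosomal membrane protein of haematopoietic cells, had RPF of 52.9, 57.2, 60.4 and 46.6 CPM in replicate 1, 47.2, 57.7, 46.4 and 54.2 CPM in replicate 2 and 38, 37, 46.8 and 42.2 CPM in replicate 3, a change of -0.41 (SE 0.0921, adjusted p = 0.0138). Both overlapped between the 2 numbers and were not called in RNA, where Itgb5 was at 38.1 to 50.2 CPM and Laptm5 at 61.5 to 77.9 CPM.

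**Figure D4:**
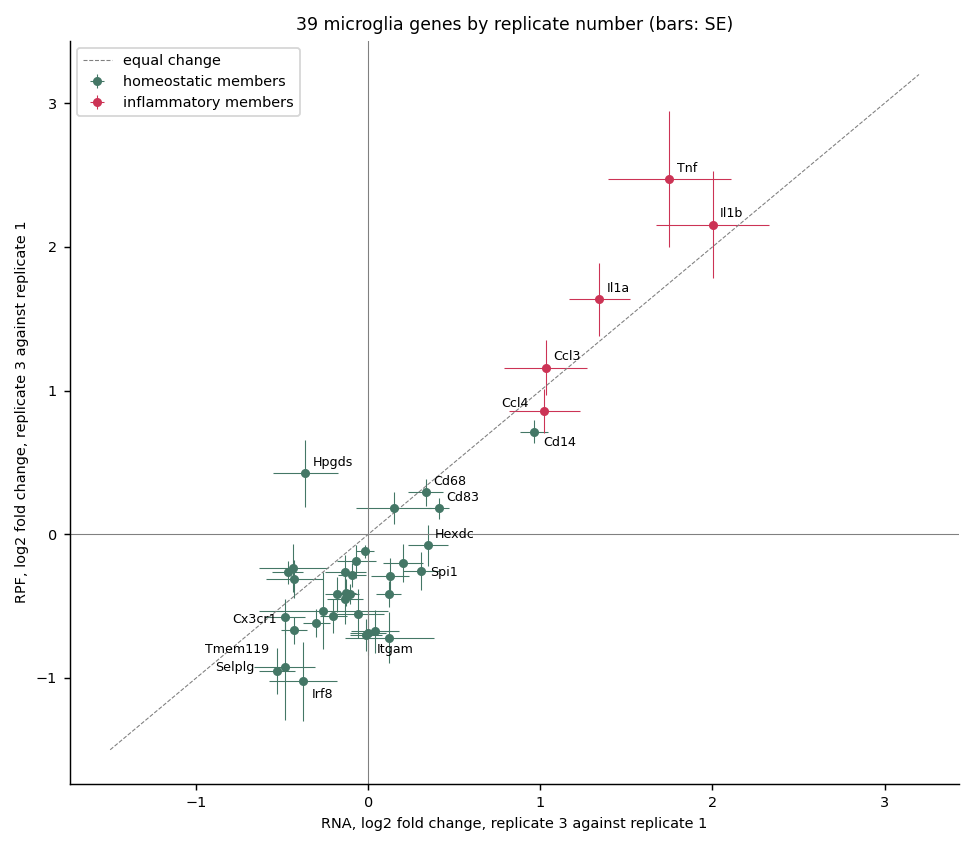
Log2 fold change of replicate 3 against replicate 1 for each of the 39 genes, RNA on the x axis and RPF on the y axis, with the 5 inflammatory genes in their own colour and a dashed line for equal change. The inflammatory genes and Cd14 lie at the upper right, and most homeostatic genes lie below 0 in RPF, with a median of -0.41.

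All 3 chains of C1q, the protein that starts the classical complement cascade, fell in RPF. C1qa RNA was 31, 34.1, 32.7 and 29.3 CPM in replicate 1, 31.7, 32.8, 30.2 and 34.1 CPM in replicate 2 and 30.7, 26.9, 29.5 and 23.5 CPM in replicate 3, and its RPF 79.2, 69.4, 71.2 and 55.1 CPM in replicate 1, 69.3, 61.6, 59.7 and 61.3 CPM in replicate 2 and 35, 43.3, 53.9 and 50.7 CPM in replicate 3. C1qb had RNA of 41.1, 36.7, 39.9 and 35.8 CPM in replicate 1, 38.8, 46.8, 44.5 and 44.2 CPM in replicate 2 and 46.7, 41.7, 40.6 and 37.8 CPM in replicate 3, and RPF of 122, 91.4, 94.1 and 75.5 CPM in replicate 1, 82.6, 94.1, 77.4 and 78.5 CPM in replicate 2 and 71.9, 65.9, 75.1 and 70.1 CPM in replicate 3. For C1qc the RNA was 41.1, 39.4, 38.5 and 34 CPM in replicate 1, 36.2, 44.8, 40.4 and 37.7 CPM in replicate 2 and 34.3, 29.6, 28.2 and 31.6 CPM in replicate 3, and the RPF 61.5, 48.8, 47.9 and 41.1 CPM in replicate 1, 45.2, 47.9, 44.3 and 44.5 CPM in replicate 2 and 27.8, 32.9, 37.1 and 30.2 CPM in replicate 3. In RPF replicate 3 lay below replicate 1 without overlap for each chain, and the changes were -0.57 (SE 0.121), -0.42 (SE 0.0901) and -0.62 (SE 0.0987). In RNA C1qc was called at -0.30 (SE 0.0776, adjusted p = 0.031), while C1qa at -0.20 and C1qb at 0.12 were not. The TE of C1qb changed by -0.54 (SE 0.124, adjusted p = 0.0612).

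The receptor Trem2 and its adaptor Tyrobp were called lower in RPF and not in RNA. Trem2 RPF, given above, changed by -0.68 (SE 0.152, adjusted p = 0.0122) and its RNA by 0.04 (SE 0.139). Tyrobp had RNA of 8.20, 8.34, 10.2 and 9.48 CPM in replicate 1, 11.2, 12.7, 9.84 and 12 CPM in replicate 2 and 12.5, 8.38, 8.35 and 6.38 CPM in replicate 3. Its RPF was 13.9, 13.2, 12.6 and 8.88 CPM in replicate 1, 11.5, 12.5, 8.49 and 11.6 CPM in replicate 2 and 6.47, 9.12, 7.37 and 9.68 CPM in replicate 3. The changes were -0.06 (SE 0.15) in RNA and -0.55 (SE 0.169, adjusted p = 0.0845) in RPF, with overlap in both. The TE of these genes was not called. Fcer1g was not called in either assay.

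Of the transcription factors, Irf8, a factor of the myeloid lineage, fell in RPF. Its RNA was 4.64, 6.02, 2.47 and 4.76 CPM in replicate 1, 3.92, 4.43, 3.80 and 4.95 CPM in replicate 2 and 4.04, 3.08, 3.25 and 3.01 CPM in replicate 3, and its RPF, of 12 to 60 counts a library, was 5.54, 4.37, 3.86 and 5.43 CPM in replicate 1, 2.51, 4.15, 3.18 and 3.74 CPM in replicate 2 and 3.04, 1.52, 2.36 and 2.60 CPM in replicate 3. The RPF change was -1.02 (SE 0.272, adjusted p = 0.0436), without overlap, and the RNA change -0.38 (SE 0.197, adjusted p = 0.423). Spi1 RNA was 12.4, 18.1, 14.5 and 13.7 CPM in replicate 1, 13.1, 20.6, 16 and 20 CPM in replicate 2 and 18, 17.7, 16.7 and 19.6 CPM in replicate 3, and its RPF 21.4, 16.5, 20.8 and 16.2 CPM in replicate 1, 19.1, 17.8, 24.9 and 19.4 CPM in replicate 2 and 10.7, 13.9, 18.6 and 18.6 CPM in replicate 3. Neither change, 0.31 (SE 0.105, adjusted p = 0.157) in RNA and -0.26 (SE 0.135, adjusted p = 0.375) in RPF, was called, nor was Sall1, at 14.8 to 21.8 CPM of RNA and 6.47 to 11 CPM of RPF.

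Among lysosomal and other genes, Aif1 and the secreted protein Olfml3 fell in RPF. Aif1 RNA was 2.08, 1.32, 1.73 and 2.25 CPM in replicate 1, 2.35, 1.83, 2.33 and 1.78 CPM in replicate 2 and 1.67, 1.66, 2.39 and 2.30 CPM in replicate 3, and its RPF 11, 8.08, 11.2 and 8.02 CPM in replicate 1, 9.54, 8.79, 9.02 and 6.73 CPM in replicate 2 and 5.33, 5.07, 6.19 and 6.14 CPM in replicate 3. Olfml3 had RNA of 11.3 to 14.8 CPM and RPF of 24.4, 17.5, 18.9 and 12.8 CPM in replicate 1, 15.8, 13.9, 13.8 and 12.7 CPM in replicate 2 and 8.37, 10.6, 12.4 and 12.7 CPM in replicate 3. They changed by -0.72 (SE 0.177, adjusted p = 0.0256) and -0.69 (SE 0.156, adjusted p = 0.0143) in RPF, without overlap, and by 0.12 (SE 0.259) and -0.0024 (SE 0.104) in RNA. Mpeg1, the pore-forming protein perforin-2, changed by -0.28 (SE 0.0806, adjusted p = 0.0631) in RPF, with overlap, and by -0.10 (SE 0.0822) in RNA, where it was at 21.1 to 26.9 CPM. Ly86 RPF was 14.1, 15.1, 16.9 and 13.4 CPM in replicate 1, 19.3, 17.1, 16.2 and 17.2 CPM in replicate 2 and 11.8, 13.2, 12.1 and 10.9 CPM in replicate 3, and it was called lower against replicate 2 and not against replicate 1.

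Hexdc was not called. Its RNA was 9.68, 9.53, 9.84 and 10.4 CPM in replicate 1, 12.3, 13.1, 9.13 and 11 CPM in replicate 2 and 12.1, 14, 12 and 12.3 CPM in replicate 3. Its RPF was 14.6, 11.8, 13.3 and 13.9 CPM in replicate 1, 13.3, 10.5, 15.1 and 11.2 CPM in replicate 2 and 11, 13.4, 12.4 and 13.2 CPM in replicate 3. Replicate 3 lay above replicate 1 without overlap in RNA, at 0.35 (SE 0.114, adjusted p = 0.13), and overlapped with it in RPF, at -0.08 (SE 0.142). Not called either were Lgmn (106 to 118 CPM of RNA), Cd53, a tetraspanin of leukocytes (8.47 to 11.2 CPM), Hpgds, the prostaglandin D synthase (2.89 to 4.54 CPM), Rgs10 (10.4 to 14.9 CPM), Siglech and Ptprc.

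In all, 17 homeostatic genes were called lower in RPF and 5 in RNA. The median difference of the 34 was -0.10 in RNA, with 11 above 0 and 23 below, and -0.41 in RPF, with 5 above and 29 below. The medians over all genes were -0.0026 and -0.0003. In the replicate 3 RPF libraries 13 of the 34 lay wholly lower (38.2%, against 4.33% of all genes) and 2 wholly higher (5.88%, against 4.19%). In RNA 4 lay wholly lower (11.8%, against 2.82%) and 4 wholly higher (11.8%, against 3.44%). In TE the median was -0.30, with 5 above 0 and 29 below, against -0.0094 for all genes. Both TE calls were lost without WT DHPG replicate 1, WT DHPG replicate 3 or Tsc2+/- vehicle replicate 1. The RNA calls were 7 without WT vehicle replicate 1, and the RPF calls 8 without WT DHPG replicate 3, of which 1 rose and 7 fell. They were 13 to 15 without WT vehicle replicate 1, WT vehicle replicate 3, WT DHPG replicate 1, Tsc2+/- vehicle replicate 1 or Tsc2+/- DHPG replicate 3. The share of all genes called in these fits is not given here, so whether other genes lost calls alike is not shown.

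The calls of single homeostatic genes differed in how far they rested on 1 library. In RPF those of Cd14, Cx3cr1, Selplg, Csf1r, Itgam, C1qc and Trem2 held under every alternative run, and in RNA those of Cd14, Cd83, Cx3cr1, Selplg and Fcrls. Without WT DHPG replicate 3 the RPF calls of P2ry12, Laptm5, C1qa, C1qb, Irf8, Aif1, Mpeg1, Itgb5 and Tyrobp were lost, and without WT vehicle replicate 3 those of Olfml3, Aif1, Itgb5 and Tyrobp. Without WT vehicle replicate 1 the calls of C1qa, Irf8, Itgb5 and Tyrobp were lost, and without Tsc2+/- vehicle replicate 1 those of Aif1, Mpeg1 and Tyrobp. Without WT DHPG replicate 1 those of Irf8, Mpeg1 and Tyrobp were lost, without Tsc2+/- DHPG replicate 3 those of Irf8, Mpeg1 and Itgb5, and without Tsc2+/- vehicle replicate 3 that of Tyrobp. In RNA the call of C1qc was lost without WT vehicle replicate 1, WT DHPG replicate 3 or Tsc2+/- vehicle replicate 3, and that of P2ry12 without WT vehicle replicate 3 or Tsc2+/- DHPG replicate 1.

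The summed levels of both sets were also compared. The 5 inflammatory genes summed to 167, 190, 210 and 279 CPM of RNA in the replicate 1 libraries, 230, 290, 384 and 338 CPM in replicate 2 and 548, 552, 386 and 490 CPM in replicate 3. Replicate 3 exceeded replicate 1 by 1.24 ± 0.458 log2 in RNA and 1.34 ± 0.372 in RPF (SD, n = 4 groups), in 4 of 4 groups. The homeostatic sum differed by -0.01 ± 0.0549 in RNA and -0.23 ± 0.143 in RPF, where it was lower in 4 of 4. The RNA sum joins genes that rose with genes that fell. From replicate 1 to replicate 3, mean RNA went from 24.3 to 47.3 CPM for Cd14 and from 77.5 to 103 CPM for Cd83. It went from 40.6 to 29.9 CPM for Cx3cr1 and from 122 to 113 CPM for Csf1r. A flat sum therefore does not mean that the single genes were unchanged.

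**Figure D5:**
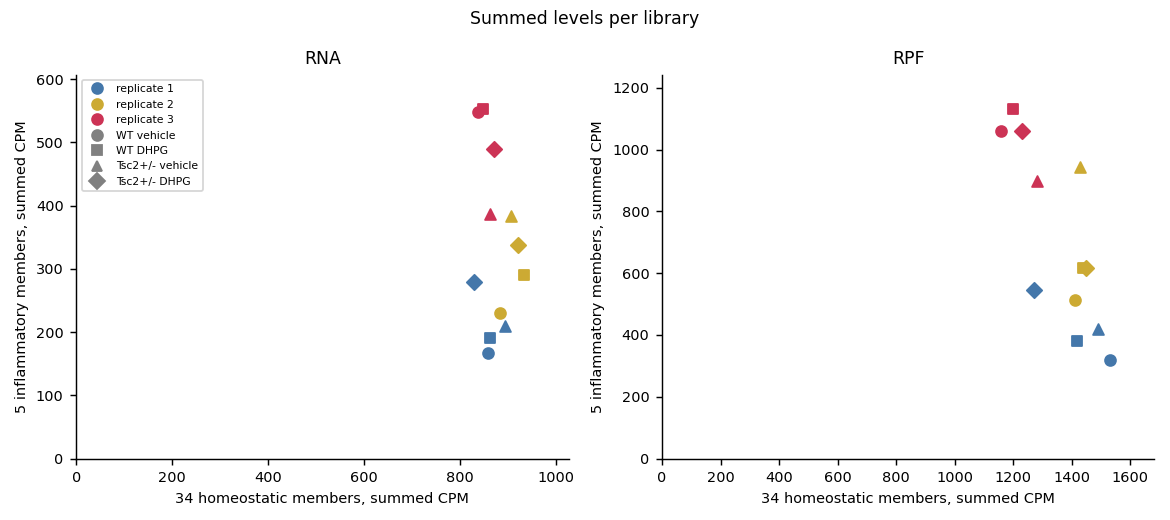
Summed CPM of the 34 homeostatic genes (x axis) and the 5 inflammatory genes (y axis) in each library, RNA in one panel and RPF in the other, with groups and replicate numbers marked. Inflammatory RNA runs from 167 to 552 CPM while the homeostatic RNA sum stays between 830 and 933 CPM. That sum joins genes that rose and genes that fell between replicate numbers.

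Replicate 2 lay between the others in the summed RNA of the inflammatory genes in each group. Against replicate 1, Cd14 and Cd83 alone were called in RNA (2 of 39, 0.386% of all genes, 0.193% higher and 0.193% lower), at 0.48 and 0.26, and in RPF (2 of 39, 2.99% of all genes, 1.37% higher and 1.62% lower), at 0.46 and 0.28. In TE 0 of 39 were called by edgeR's quasi-likelihood test (0.149% of all genes), with 4 at an unadjusted p under 0.05 (9.36% of all genes). Replicate 3 against replicate 2 gave 5 calls in RNA (0.971% of all genes, 0.537% higher and 0.434% lower), with Cd14 higher at 0.48 and Selplg, Tmem119, Cx3cr1 and C1qc lower at -0.56, -0.64, -0.43 and -0.36. In RPF 8 homeostatic genes were called lower (0.66% of all genes, 0.318% higher and 0.342% lower), Csf1r, Itgam, Ly86, C1qc, P2ry12, Cx3cr1, Selplg and Mpeg1. In TE 0 were called (0.0313%), with 5 at an unadjusted p under 0.05 (5.75% of all genes). The RPF libraries of replicates 2 and 3 both had even counts, and with these counts halved 7 genes were called. The 8 RPF calls fell to 1 without WT DHPG replicate 2, 2 without WT DHPG replicate 3, 3 without Tsc2+/- DHPG replicate 2, 4 without WT vehicle replicate 2 and 5 without WT vehicle replicate 3. The RNA calls were 3 without WT DHPG replicate 2 or WT DHPG replicate 3. Those of replicate 2 against replicate 1 were 1 in RNA without WT vehicle replicate 1, WT DHPG replicate 1, WT DHPG replicate 2, Tsc2+/- vehicle replicate 1 or Tsc2+/- vehicle replicate 2, and 1 in RPF without WT vehicle replicate 2 or WT DHPG replicate 1.

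Other genes that respond to NF-kB moved with the inflammatory genes. In a list of 30 such genes that holds none of the 39, 21 of 29 tested were called higher in replicate 3 than in replicate 1 in RNA (1.56% of all genes) and 18 of 28 in RPF (1.59%), with 0 called lower (1.07% and 2.02% of all genes), and medians of 0.65 and 0.58. The neutrophil chemokine Cxcl2 rose by 2.12 (SE 0.298) in RNA and 2.37 (SE 0.205) in RPF, Cxcl1 by 1.86 and 1.84, the monocyte chemokine Ccl2 by 1.63 and 1.35, and the inflammasome sensor Nlrp3 by 1.1 and 1.06. Nfkbia and Tnfaip3, which brake NF-kB, rose by 0.88 and 0.79 in RNA. None of these genes was called between genotypes or treatments. Several are also made by astrocytes and vessel cells, and the libraries do not separate them.

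Calls in the other lists stand beside 2.63% of all genes called in RNA and 3.61% in RPF. Of 29 more genes of microglia, 4 rose and 1 fell in RNA, and of 28 in RPF 1 rose and 3 fell. Of the genes of disease-associated microglia, 0 of 14 were called in RNA by edgeR's quasi-likelihood test, and 1 of 12, the lectin Lgals3, rose in RPF. In RNA 2 of the 14 had an unadjusted p under 0.05, against 12.8% of all genes. Among 16 stress and immediate early genes, Fos, Jun, Junb, Arc and Atf3 rose in RNA by 0.20 to 0.34 and Npas4 fell by 0.50, and in RPF Npas4 alone was called. Of 10 ligands and brakes of microglia, such as the fractalkine gene Cx3cl1, 1 rose in RNA, Csf1, and 0 were called in RPF. In RPF 2 of them had an unadjusted p under 0.05, against 15.1% of all genes. Summed markers of astrocytes were 7410 to 8810 CPM of RNA in replicate 3 and 8510 to 9070 in replicate 1, and overlapped. In RPF they were 6720 to 7750 CPM in replicate 3 and 7780 to 8530 in replicate 1, without overlap, and so were lower together with the homeostatic genes. Of the 10 astrocyte genes 3 were called lower in RPF and 1 in RNA, and of 10 genes of endothelial and mural cells 3 in RPF. Summed markers of neurons overlapped in RPF, at 9530 to 9710 CPM in replicate 3 and 9500 to 10500 in replicate 1, and those of blood leukocytes were near 0 in both. Their part in the differences between replicate numbers was not tested.

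Promoters of 29 of the 39 genes were matched in RefSeq (GRCm38.p6), 25 homeostatic and 4 inflammatory, as stretches around the start of transcription. The core motif of PU.1, GAGGAAG on either strand, was in 8 of the 25 and in 2 of the 4, and in 15.4% of 27025 genes. The consensus site of NF-kB in a wide form was in 3 of the 25, in 0 of the 4 and in 9.55% of all genes. In a narrow form it was in 2 of the 25, in 0 of the 4 and in 5.14% of all genes. Sites outside these stretches were not searched for, so 0 of the 4 does not mean that these genes lack such sites. Windows of 30 bases around the motif are shown for both cytokine genes that hold it and for 2 of the homeostatic genes whose values are given above, with the motif or its reverse complement in capitals, on the strand of the gene. The motif ends 111, 34, 77 and 34 bases before the start used in the RefSeq promoter table, in this order. For Il1a that start lies inside the annotated gene, downstream of the start of its longest extent, so that its window is within the gene.
Tnf, chr17:35202107-35202136, minus strand: ggccactaccgCTTCCTCcacatgagatca
Il1a, chr2:129309995-129310024, minus strand: cctacctgcttGAGGAAGactataaaaagg
Itgam, chr7:128062545-128062574, plus strand: gttttctcccgGAGGAAGgctacagagggc
Trem2, chr17:48346349-48346378, plus strand: agcctcctttcCTTCCTCcctccctcacgc
A match describes these letters only, and genes with and without it are found among those that rose and those that fell.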

How the data were processed

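Adapters were removed with cutadapt, rRNA and tRNA reads were discarded with Bowtie2, and the rest were mapped to mm10 with TopHat2, per the study's methods. Only uniquely mapped reads without duplicates, by molecular identifier, were kept. The deposited values are expected counts of the authors from RSEM, as whole numbers and without batch correction. RNA was counted over whole RefSeq transcripts, and RPF over coding sequences without their ends. The RNA libraries of these genotypes were made with poly(A) beads and a directional kit, per the study's methods. Among RNA values 27 genes carry a date in place of a symbol.

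Genes were kept with filterByExpr at a minimum count of 10 (14516 in RNA, 12877 in RPF, 12785 in TE) and scaled by TMM. Counts were tested with edgeR 4.0.16 (R 4.3.3), quasi-likelihood F test, two-sided, robust, with a model of group plus replicate number, and Benjamini-Hochberg adjustment over all genes of a comparison. An adjusted p under 0.1 was called. This replaced the study's ComBat, DESeq2 and anota2seq steps. TE was the interaction of assay and group over 24 libraries. The main TE model held the replicate number within each assay and not the shared lysate. A model with the lysate as a block was among the alternatives. Log2 CPM used a prior count of 2. Total counts limit precision for genes of few counts, and intervals between libraries include counting error. Sums of squares were taken over the 12 libraries of an assay.

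Same-numbered libraries correlated at r = 0.0228 to 0.143 in RNA and 0.033 to 0.263 in RPF, as deviations from group means across genes. Libraries of different number correlated at r = -0.126 to 0.024 in RNA and -0.194 to 0.0667 in RPF. The same-numbered ranges were thus higher, with little overlap, though the correlations were weak. The replicate number was in the model because the study corrected for batch and made these replicates in numbered batches. Its match to a batch is not given, and not every pair correlated above 0.1, so same-numbered libraries are compared as a description and not as shown pairs.

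Members, lists, motifs and tests were chosen with earlier results of these data known. By rule, every member is accounted for, and values by library are given for the inflammatory genes, 12 set homeostatic genes, members called in a comparison and the 2 with the smallest p in each comparison of genotype or DHPG within a group (chosen by that p). Where such a gene was not called in an assay, some values are given as a range or left out. Alternatives were DESeq2 1.42.0, ComBat in sva 3.50.0 with DESeq2, other scalings, filters and thresholds, no replicate block, halved RPF counts and leaving out replicates. Shares of all genes called are given for the main fit only. On simulated counts of 14516 genes with 200 changed by a log2 difference of 1, the test called 92.5% for genotype in vehicle in RNA. The simulation gave every gene the same spread beyond counting error. The inflammatory genes had an SD of 0.492 to 0.976 log2 CPM over the 12 RNA libraries, against a median of 0.138 for all genes. The 92.5% therefore does not describe the power for them, nor for smaller differences.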

Additional observations from a re-analysis of the deposited data

Results flagged for a closer look

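Cd83 RPF drew attention because all same-numbered pairs of libraries moved one way under one condition and the opposite way under the other. DHPG against vehicle was 0.13 on the log2 scale in WT, above 0 in 3 of 3 pairs, and -0.09 in Tsc2+/-, below 0 in 3 of 3 pairs, a difference of -0.22. The same 4 groups read by genotype gave 0.17 in vehicle and -0.05 in DHPG, which is the same difference of -0.22 and not a further observation. The RPF levels of Cd83 were 48.0, 63.0 and 54.4 CPM in WT vehicle, 53.9, 63.5 and 62.8 CPM in WT DHPG, 57.2, 66.6 and 61.3 CPM in Tsc2+/- vehicle and 51.7, 62.4 and 60 CPM in Tsc2+/- DHPG, and the groups overlapped. The interaction in edgeR's quasi-likelihood test was -0.21 (SE 0.119, unadjusted p = 0.0803, adjusted p = 0.998) and was not called.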

How the results depend on the processing

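Of 1132 recomputed values of named genes none turned its direction, and 171 lost a call. These genes were chosen by a call or a small p in the main fit. Their kept direction therefore says little about the other genes. Of 694 recomputed counts and summed levels 651 kept their value within the spread or within 1.5 times. The fit without the replicate block called 0 members in all 21 group comparisons, as did DESeq2, so the replicate block changed no call between groups. Same-numbered libraries correlated weakly, though in a higher range than others, and the sources do not state that the numbers pair libraries.

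Leaving out replicates gave 0 to 2 calls for genotype in vehicle and for genotype averaged in RNA, and 0 to 1 for genotype in vehicle, in DHPG and averaged in RPF. The upper ends were without replicate 3. For RPF genotype averaged, the count was 1 without the filter and 1 with halved counts, each time Trem2. For replicate 2 against 1 it was 1 in RNA at an adjusted p under 0.05 and 1 to 5 on leaving out a library, and in RPF 5 by DESeq2 and 1 to 4 on leaving out a library. For replicate 3 against 1 leaving out libraries gave 7 to 11 in RNA, 8 to 23 in RPF and 0 to 3 in TE, where an adjusted p under 0.05 left 1. For replicate 3 against 2 it gave 3 to 6 in RNA and 1 to 11 in RPF. The cause was not tested.

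The summed homeostatic RNA for genotype in vehicle, 0.0452 log2, was 0.0234 by library size only, 0.022 as a mean of log2 CPM and 0.0306 without Csf1r. As a mean of log2 CPM the sum for DHPG in WT, 0.0333, became -0.0243, and that for replicate 3 against replicate 1, -0.0113, became -0.0765. Low counts limit Irf8, Tmem119, Aif1, Ptprc and P2ry13, and RPF totals are smaller than RNA totals.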
